A study of Mus musculus with 6 samples.

Results

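The cytosolic ribosomal proteins are the proteins that, with ribosomal RNA, build the large and small subunits of the ribosome outside mitochondria. Their genes were chosen by symbol alone, as the gene symbols of the Rpl, Rps and Rplp series with a number and at most 1 further letter, together with Rpsa. Of 18820 genes tested, 72 met this rule. These 72 genes comprised 39 of the large subunit, 24 of the small subunit, 3 of the stalk (Rplp0, Rplp1 and Rplp2) and 6 paralogues or copies of other family members (Rpl3l, Rpl10l, Rpl39l, Rpl32l, Rps27l and Rps4l). Expression was compared in primary hepatocytes, which are liver cells isolated by perfusion and digestion and kept in culture. The cells came from male wildtype C57BL/6J mice of 8 to 10 weeks of age. Control dishes received an adenovirus for green fluorescent protein (Ad-GFP), and the other dishes an adenovirus for nuclear CREBH (Ad-nuclear CREBH), the form of this liver transcription factor that acts in the nucleus. Both groups thus carried an adenovirus, given at a multiplicity of infection of 100, and RNA was taken 24 h later from 3 dishes of 60 mm per group. No dish without virus was analysed here, and whether separate animals supplied the dishes is not in the labels, so p-values measure the spread between dishes, which may be technical.

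Every cell needs ribosomes in equal numbers of large and small subunits, and the ribosomal protein genes are among the most strongly transcribed genes of the liver. Their promoters are compact, often hold sites for GABP and YY1, and start transcription at a pyrimidine tract. That tract, the TOP motif, lets the mTORC1 kinase and the RNA-binding protein LARP1 set how much of the mRNA is translated and how long it lasts. The comparison addressed which of these genes differed when nuclear CREBH was overexpressed.

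Every dish gave 1 Affymetrix Mouse Gene 1.1 ST array, and all expression values below are on the log2 scale as deposited. A log2 fold change is the mean of the Ad-nuclear CREBH dishes minus the mean of the Ad-GFP dishes, and it is given with its SE. Creb3l3, the gene of CREBH, read 8.49, 8.02 and 8.21 with Ad-GFP and 9.97, 10.46 and 10.59 with Ad-nuclear CREBH, which does not separate the viral from the mouse transcript. The arrays numbered 1 stood apart in both groups. The median of the 72 genes was 11.75 on Ad-GFP array 1 against 11.52 and 11.50 on the other Ad-GFP arrays, and 11.54 on Ad-nuclear CREBH array 1 against 11.41 and 11.37 on the others. Counts over the family without both of these arrays are given below, with values for the genes described whose call they changed. Hepatocyte markers were present, with Alb (albumin) at 13.23 to 13.33 on every array. Of 8 such markers 1 rose and 3 fell in the test described below (50% called, compared with 37.4% of all genes). The median log2 fold change of these 8 markers was -0.19. Their summed linear level was 24200 to 24500 in the Ad-GFP and 22900 to 26700 in the Ad-nuclear CREBH dishes. Of 12 macrophage markers 1 rose, 3 fell and 8 did not pass (33.3% called, compared with 37.4% of all genes). Cd68 was among the falls, with a log2 fold change of -1.13. The median log2 fold change of these 12 markers was 0.092. Their summed linear level was 2740 to 3740 in the Ad-GFP and 1270 to 2680 in the Ad-nuclear CREBH dishes. The summed ranges of endothelial (294 to 389 and 311 to 401), stellate (177 to 230 and 150 to 317) and cholangiocyte markers (238 to 570 and 404 to 608) overlapped between groups, and the part of any of these cells in the results was not tested.

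The ribosomal protein genes changed little. Of the 72 genes, 1 rose and 13 fell at a Benjamini-Hochberg adjusted p under 0.05 from limma, adjusted over all 18820 genes, and 58 did not pass. Across all genes 37.4% passed, 19.2% as risen and 18.2% as fallen, against 19.4% of the family, 1.39% as risen and 18.1% as fallen. In this fit the share of the family that fell was close to that of all genes, and the share that rose was below it. The share that fell was not stable. It was 33.3% after cyclic loess normalization (17.5% of all genes, with 1.39% and 19% risen) and 44.4% without both arrays numbered 1 (25.3% of all genes, with 6.94% and 23.3% risen), but 4.17% with each array centred on its median over all genes (15.2% of all genes, with 5.56% and 25.6% risen). With the replicate number as a block in the fit, 22 of the 72 genes fell and 3 rose, compared with 3705 and 3715 of the 18820 genes. The number of falls was 8, 7 and 6 without Ad-GFP array 2, Ad-nuclear CREBH array 2 and Ad-nuclear CREBH array 3. Among all genes it dropped too, to 2658, 2677 and 2637, from 3427 with all 6 arrays. The number of rises was 4 without Ad-GFP array 1, where 3764 of all genes rose. Of the 72 genes, 58 (80.6%) changed by less than 1.25-fold, compared with 53% of all genes. Only Rps4l changed more than 2-fold (1.39%), compared with 18.6% of all genes. Rps4l also was the 1 member that met the criteria of the study's methods, which ask for an unadjusted p under 0.001, a fold change over 2 or under 0.5 and a linear expression value over 300, and which 8.01% of all genes met.

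**Figure D1:**
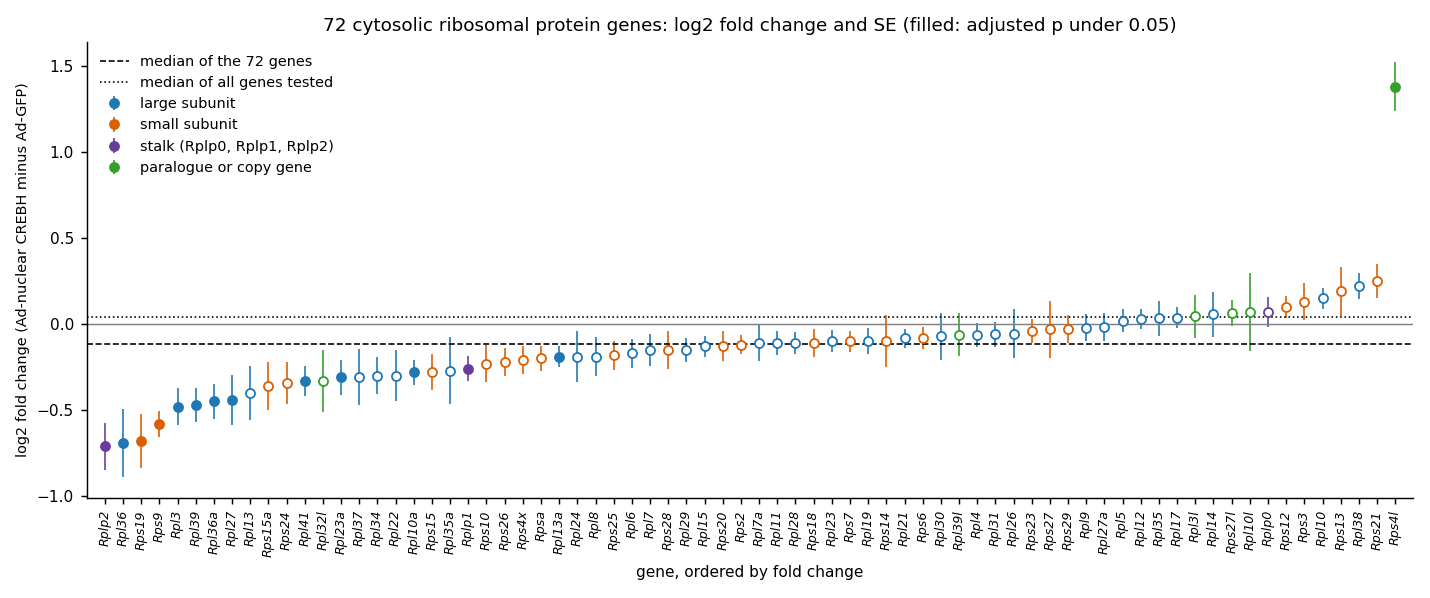
Log2 fold change (Ad-nuclear CREBH minus Ad-GFP, vertical axis) of each of the 72 genes, ordered by size, with bars of 1 SE and colours for the part of the ribosome. Filled points had an adjusted p under 0.05. Apart from Rps4l at 1.38, the genes lie between -0.71 and 0.25, and the dashed median of the family (-0.11) is below the dotted median of all genes (0.039).

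The small shift shared by the family was downward in most scalings, but not with arrays centred on their medians. The family median was -0.108 after quantile normalization and -0.172 after cyclic loess. With the deposited values the median log2 fold change of the 72 genes was -0.11, with quartiles of -0.28 and -0.03, and 56 of the 72 lay below 0, but with each array centred on its own median over all genes the family median was 0.027. That centring moved the median of all genes from 0.039 to 0.181. The median of the family minus that of all genes was -0.15, which such a centring cannot change. In the deposited values 34 of the 72 genes read lower in all 3 Ad-nuclear CREBH dishes than in any Ad-GFP dish (23.1% of all genes did so), and 4 read higher without overlap (26.2% of all genes). After the centring these counts were 4 lower and 6 higher, with 18.3% and 36.6% of all genes. In bulk RNA of this kind, fewer cells of a type and less RNA per cell cannot be told apart.

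Most members had bright features, and other bright genes were called at a higher share. The median member read 11.51 and 60 of the 72 were among the 1000 brightest genes on the arrays. Of the 510 genes at or above 10.63, the lower quartile of the family, 57.6% passed, 32% as risen and 25.7% as fallen. These 510 genes include 54 members, whose median level of 11.96 was above that of the 456 others (11.16). Among those 456 genes 285 (62.5%) passed, and among the 54 members 9 (16.7%) passed, all of them lower. A change under 1.25-fold was seen in 38.4% of the 456 genes and in 85.2% of the 54 members. Levels were closer above the median of the family, where 142 other genes had a median level of 11.92 and 36 members one of 12.14. Of these, 57.7% of the other genes and 16.7% of the members passed, and 48.6% and 94.4% changed by less than 1.25-fold. The share of members called was more sensitive to the fit than the size of their changes. Without both arrays numbered 1, 32 members fell and 5 rose. These comprised all 14 genes called with the 6 arrays and 23 more, so that 51.4% were called, compared with 48.6% of all genes and 84% of the bright genes outside the family. In the same fit 84.7% of the members changed by less than 1.25-fold, compared with 51% of all genes.

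**Figure D2:**
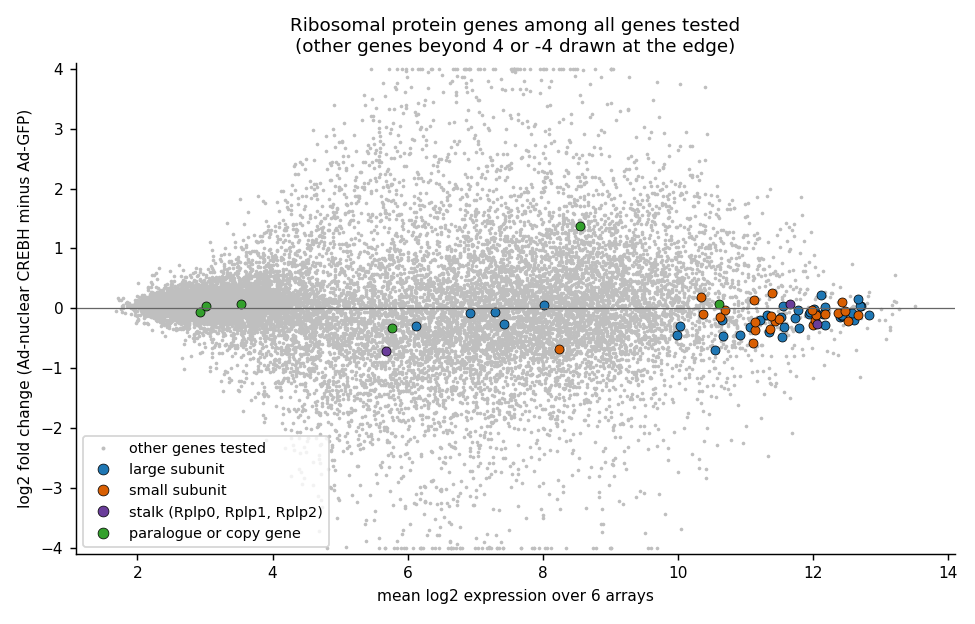
Log2 fold change (vertical axis) against the mean log2 expression over the 6 arrays (horizontal axis), with 1 point per gene. Most coloured ribosomal protein genes form a narrow band at the right, mostly above a level of 10, while grey genes of the same level spread wider. Rps4l stands above the band at a level of 8.55.

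The stalk of the large subunit, which recruits the elongation factors, held 2 falls among its 3 genes. Rplp2, one of the acidic stalk proteins, read 6.08, 6.06 and 5.98 with Ad-GFP and 5.40, 5.35 and 5.24 with Ad-nuclear CREBH. The groups were far apart compared with the spread within them, and the log2 fold change was -0.71 (SE 0.137, adjusted p = 0.00418). This feature was dim, at a mean of 5.68, and a brighter feature that also names another gene (6.69) was not used. Its partner Rplp1 read 12.25, 12.21 and 12.13 against 11.96, 12.00 and 11.84, which is a change of -0.26 (SE 0.0731, adjusted p = 0.0227), which did not pass without Ad-GFP array 2 or Ad-nuclear CREBH array 3, without the intensity trend, or with arrays centred on their medians (adjusted p = 0.365) or on the family median (adjusted p = 0.371). Rplp0, the base of the stalk, did not follow them. Its values of 11.80, 11.53 and 11.57 overlapped with those of 11.73, 11.72 and 11.66, and its log2 fold change was 0.07 (SE 0.089, adjusted p = 0.596), or 0.14 (adjusted p = 0.0333) without both arrays numbered 1.

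Of the 39 genes of the large subunit 9 fell and 0 rose, with a median log2 fold change of -0.13. At an unadjusted p under 0.05 from limma, 2 were higher and 11 lower (23.1% and 21.8% of all genes), and 0 met the criteria of the methods. Among the 9 were Rpl36, Rpl3, Rpl39 and Rpl36a. Rpl36 read 11.22, 10.76 and 10.71 with Ad-GFP and 10.57, 10.18 and 9.88 with Ad-nuclear CREBH, so that array 1 was the highest of its group in both. Its log2 fold change was -0.69 (SE 0.198, adjusted p = 0.026). The call was lost without Ad-GFP array 1, Ad-nuclear CREBH array 2 or Ad-nuclear CREBH array 3 (adjusted p of at most 0.0896) and with arrays centred on their medians (adjusted p = 0.0851). Rpl3, which reaches into the peptidyl transferase centre, read 11.81, 11.77 and 11.77 against 11.54, 11.23 and 11.15. The Ad-GFP dishes hardly differed from each other, and the log2 fold change was -0.48 (SE 0.107, adjusted p = 0.00868). Rpl39, a small protein of the exit tunnel, read 11.05, 10.86 and 10.83 against 10.55, 10.40 and 10.38 (log2 fold change -0.47, SE 0.0985, adjusted p = 0.00615). Rpl36a read 11.28, 11.09 and 11.05 against 10.82, 10.66 and 10.61 (log2 fold change -0.45, SE 0.0995, adjusted p = 0.00846). For Rpl3, Rpl39 and Rpl36a the call held in each fit except the one centred on array medians, where the adjusted p lay between 0.071 and 0.0999.

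The remaining 5 falls of the large subunit were smaller. Rpl27 had a log2 fold change of -0.44 (adjusted p = 0.045), with dishes at 10.49, 10.14 and 10.01 against 9.94, 9.69 and 9.68. Rpl41, whose product is among the shortest proteins of the cell, read 12.08, 11.94 and 11.86 against 11.73, 11.60 and 11.56 (log2 fold change -0.33). Rpl23a, which sits at the mouth of the exit tunnel, read 11.88, 11.64 and 11.67 against 11.53, 11.46 and 11.27 (log2 fold change -0.31). Rpl10a read 12.38, 12.27 and 12.31 against 12.13, 12.04 and 11.95 (log2 fold change -0.28). Rpl13a, which takes on a role outside the ribosome after interferon, read 12.77, 12.69 and 12.65 against 12.55, 12.49 and 12.50 (log2 fold change -0.19). The groups did not overlap for any of these 5 genes, yet each call was lost when the arrays were centred on their medians. All 5 calls were also lost without Ad-nuclear CREBH array 2 or array 3, and each without at least 1 Ad-GFP array.

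Of the 24 genes of the small subunit 2 fell and 0 rose, with a median log2 fold change of -0.13. At an unadjusted p under 0.05 from limma, 1 was higher and 8 lower, where 23.1% and 21.8% of all genes were. Rps9, which binds early in the assembly of the small subunit, had the lowest adjusted p among the 13 falls. It read 11.41, 11.39 and 11.38 with Ad-GFP and 10.89, 10.80 and 10.76 with Ad-nuclear CREBH, with no overlap and a spread far below the difference. The log2 fold change was -0.58 (SE 0.0762, adjusted p = 0.00059). Rps19, which is needed to mature the small subunit and is mutated in Diamond-Blackfan anaemia, read 8.83, 8.55 and 8.38 against 8.07, 7.81 and 7.84. Its log2 fold change was -0.68 (SE 0.155, adjusted p = 0.00923). Rps9, Rps19, Rplp2 and Rps4l kept their calls in each of the 16 alternative fits that tested them. The percentages called, all of them as falls, were 23.1% for the large and 8.33% for the small subunit. Among all genes 18.2% fell, and 37.4% were called in either direction. The difference between the subunits was not tested.

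**Figure D3:**
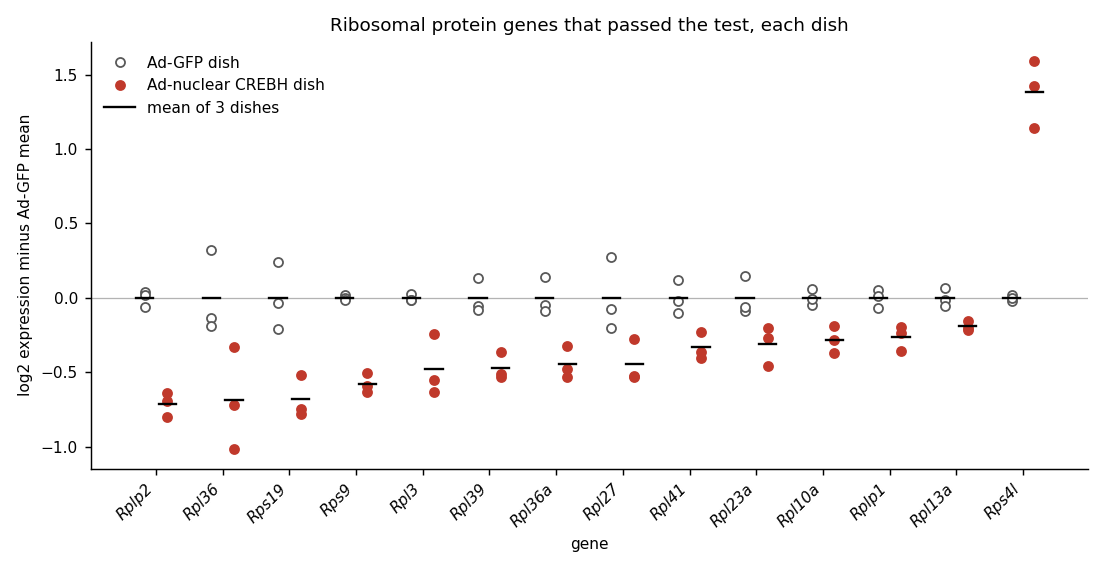
Log2 expression of each dish minus the Ad-GFP mean of the gene (vertical axis) for the 14 genes at an adjusted p under 0.05. Open points are Ad-GFP dishes, red points Ad-nuclear CREBH dishes and lines the means of 3 dishes. All 13 fallen genes have their red points below the open ones, and Rps4l has them above.

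Several members that are known for roles beyond the core ribosome did not pass with all 6 arrays. Rps6, the substrate of the S6 kinases, read 12.48, 12.36 and 12.38 against 12.36, 12.28 and 12.34 (log2 fold change -0.08, adjusted p = 0.38). This brightest of the 8 features of Rps6 changed least, and all 8 ranged from -0.18 to -0.08, with a median of -0.16. Rpl5 and Rpl11, which bind Mdm2 when assembly fails and so stabilise p53, moved by 0.02 (adjusted p = 0.85) and by -0.11 (adjusted p = 0.266). Rpsa, also described as a laminin receptor, read 12.20, 12.10 and 12.09 against 12.00, 11.83 and 11.97, without overlap but at an adjusted p of 0.0723. This brightest of its 5 features changed least (-0.197), and the others lay at -0.325, -0.312, -0.356 and -0.348. Log2 fold changes were 0.13 for Rps3 (adjusted p = 0.404), -0.10 for Rps14 (adjusted p = 0.677), -0.10 for Rpl23 (adjusted p = 0.259), -0.30 for Rpl22 (adjusted p = 0.158) and -0.06 for Rpl26 (adjusted p = 0.807). The 5 members with the brightest features also did not pass. Rpl28, Rpl12, Rpl17, Rps2 and Rpl10 had log2 fold changes of -0.11, 0.03, 0.04, -0.12 and 0.15. Without both arrays numbered 1, Rpl11 (-0.14, adjusted p = 0.015), Rpsa (-0.20, adjusted p = 0.0142) and Rps2 (-0.11, adjusted p = 0.0307) passed, as did Rpl13, Rpl34 and Rpl35a (-0.38, -0.25 and -0.31). The standard error of a member was 0.0899 at the median, close in size to the median shift of the family.

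When each array was centred on the median of the family, the spread within the family itself became visible. Relative to that median, 4 members were higher and 7 lower at an adjusted p under 0.05, where 22.1% and 11.9% of all genes were. The higher members were Rps4l, Rps21, Rpl38 and Rpl10. Rpl38, which is needed for the translation of particular Hox mRNAs, read 12.15, 11.93 and 11.98 with Ad-GFP and 12.23, 12.24 and 12.25 with Ad-nuclear CREBH. It was 0.37 above the family (SE 0.0884, adjusted p = 0.0104), while in the deposited scale its log2 fold change was 0.22 (adjusted p = 0.0529), or 0.29 (adjusted p = 0.00036) without both arrays numbered 1. Rps21 read 11.44, 11.17 and 11.21 against 11.59, 11.57 and 11.42, which overlapped by 1 dish, and was 0.40 above the family (SE 0.0946, adjusted p = 0.00959). Its log2 fold change of 0.25 (adjusted p = 0.0775) was 0.30 (adjusted p = 0.00214) without both arrays numbered 1. Rpl10, which joins the large subunit late, read 12.57, 12.56 and 12.66 against 12.78, 12.68 and 12.77 and was 0.30 above the family (SE 0.1, adjusted p = 0.0468). The lower members were Rplp2, Rpl36, Rps19, Rps9, Rpl3, Rpl39 and Rpl36a, at -0.56 to -0.29 relative to the family.

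Rps4l rose. It is a relative of Rps4x, lies on chromosome 6 (GRCm38.p6, 148354656 to 148355596) and is annotated by RefSeq as a transcribed pseudogene, the only such entry among the 72 genes. Its values were 7.84, 7.88 and 7.86 with Ad-GFP and 9.0, 9.45 and 9.28 with Ad-nuclear CREBH, a 2.61-fold difference (log2 fold change 1.38, SE 0.141, adjusted p = 0.00015). Its second feature read 7.87, 7.84 and 8.02 against 8.76, 8.87 and 9.20, a log2 fold change of 1.03. Neither feature overlapped between groups. Rps4x, the X-linked gene that encodes the protein in the ribosome, moved by -0.21 (SE 0.0821, adjusted p = 0.0808), with 11.63, 11.51 and 11.48 against 11.40, 11.24 and 11.36. Without both arrays numbered 1 it was -0.20 (adjusted p = 0.0134). All 5 features of Rps4x lay below 0, between -0.26 and -0.21. Transcripts of near-identical copies can mix on an array, and whether the probes of Rps4l also bind another transcript was not tested.

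The other 5 paralogues and copies did not pass. Rps27l, a p53-responsive paralogue of Rps27, read 10.57, 10.58 and 10.58 against 10.64, 10.63 and 10.65, which did not overlap but differed by only 0.06 (adjusted p = 0.578). Rps27 itself overlapped between groups, at a log2 fold change of -0.03 (adjusted p = 0.91). Rpl3l, known from muscle, and Rpl10l and Rpl39l, known from testis, had the 3 dimmest features of the family, with means of 3.01, 3.54 and 2.92, and log2 fold changes of 0.04, 0.07 and -0.06. Their partners Rpl3 and Rpl39 fell as given above. Rpl32l had a log2 fold change of -0.33 (adjusted p = 0.204).

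Ribosomal protein genes have many near-identical processed copies in the genome, and the array carries several features for most members. The 72 genes had 381 features of their own, with 41 for Rpl21, and 55 genes had more than 1. In 53 of those 55 genes every feature lay on the same side of 0. The exceptions were Rpl17, with 15 of 17 features below 0, and Rpl5, with 3 of 5 below 0. For both, the brightest feature lay above 0. The 5 features of Rpl41 ranged from -0.36 to -0.33, the 6 of Rpl3 from -0.56 to -0.46, the 6 of Rpl10 from 0.13 to 0.16 and the 12 of Rps12 from 0.06 to 0.10. Other genes spread wider, with the 8 features of Rpl12 from 0.01 to 0.60 and the 8 of Rpl31 from -0.56 to -0.01. The 10 features of Rpl36 ranged from -0.69 to -0.24 and the 18 of Rps2 from -0.33 to -0.12. These features can share sequence, so they are not independent measurements. In 39 of the 55 genes the brightest feature, which stands for the gene here, had a higher log2 fold change than the median of the others. With the mean of all features per gene the family median was -0.155 and again 1 gene rose and 13 fell. A further 60 features name a member beside another gene and were not used for single genes. Their median was -0.18, with 49 of 60 below 0. For Rplp2, Rpl26, Rpl30, Rpl32l, Rpl34 and Rpl35a the only feature used was over 1 log2 unit dimmer than a feature shared with another gene. Rpl32, Rpl37a and Rps16 were present only on such features and are not among the 72.

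**Figure D4:**
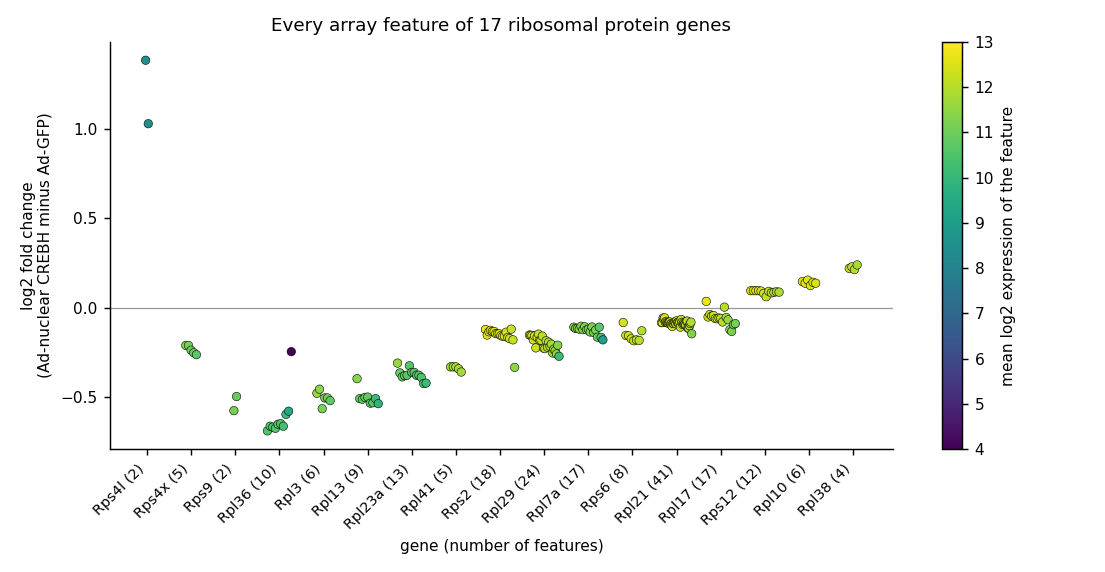
Log2 fold change of every feature (vertical axis) of 17 ribosomal protein genes chosen to show the range, with the number of features in brackets and the colour giving the mean log2 expression of the feature. Most features of a gene lie close together compared with the distance between Rpl36 and Rpl38 (4 features from 0.21 to 0.24). Of the 10 features of Rpl36, the 8 within 1 log2 unit of its brightest lie from -0.69 to -0.60. Its dimmer features lie at -0.578 (level 9.38) and -0.245 (level 4.04). The 2 features of Rps4l stand apart at 1.38 and 1.03.

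The start sites of the family show what its genes share that the choice by symbol did not use. The bases from 20 before to 10 from the annotated start (GRCm38.p6, RefSeq) are printed 5′ to 3′ for the 3 genes whose fall kept its call, for Rpl38 and Rps21 above the family median and for Rps6, which did not pass, with the longest run of pyrimidines in capitals.
Rps9, chr7:3704021-3704050, plus strand: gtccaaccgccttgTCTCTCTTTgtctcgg
Rplp2, chr7:141447631-141447660, plus strand: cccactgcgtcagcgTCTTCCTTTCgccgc
Rps19, chr7:24884572-24884601, plus strand: agcaCTCCgaaatctcgcgagactcgacgc
Rpl38, chr11:114668560-114668589, plus strand: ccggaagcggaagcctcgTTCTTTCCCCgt
Rps21, chr2:180257359-180257388, plus strand: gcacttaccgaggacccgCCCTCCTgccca
Rps6, chr4:86857358-86857387, minus strand: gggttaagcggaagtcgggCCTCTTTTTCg
Runs of 10 pyrimidines crossed the start of Rplp2, which fell, as well as those of Rpl38 and Rps6, which did not. The run of Rps9 was 9 long, and Rps19 had no run above 4 at this annotated start. Each window is the one in the RefSeq promoter table whose start lies nearest to the outer end of the gene, which for Rps9 is inside it.

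Promoter windows of 250 bases before to 50 after the start were found for 53 of the 66 genes other than the paralogues, with 63 windows in all. Within 20 bases of the start, 44.4% of these windows held at least 8 pyrimidines in a row, compared with 16% of 18155 windows of all tested genes. A C at the start followed by 4 pyrimidines was found in 20.6% and 2.3%. The motif CCGGAAG, read on both strands as a site of the GABP type, was in 38.1% of the windows of the family and 12.1% of all, and AAGATGGC, of the YY1 type, in 11.1% and 3.23%. CREB-type letters were rare. TGACGTCA was in 6.35% of the family windows (4 genes: Rpl13, Rpl26, Rpl27a and Rps9) and in 2.41% of all, and TGACGTGG in 0 of 63 windows and 0.782% of all. CACGTG was in 12.7% and 8.31%, GGGCGG in 60.3% and 49.6%, and TATAAA in 9.52% and 11.6%. Of the 53 genes 9 fell, and 4 of these 9 were among the 27 genes with the run of 8 pyrimidines. The median log2 fold change was -0.11 with that run and -0.14 without it, and it was -0.12 with CCGGAAG and -0.13 without it. It was -0.27 with AAGATGGC (5 genes) and -0.11 without it, and -0.23 with TGACGTCA (4 genes) and -0.12 without it. With CACGTG (6 genes) it was -0.15 against -0.12, and with the C and 4 pyrimidines at the start (13 genes) -0.11 against -0.16. These differences were not tested. These matches describe letters in a window, not bound sites.

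Genes that build and run the ribosome were counted in the same fit, from lists of known members. Of 47 genes of ribosome assembly measured, 8 rose and 16 fell (51.1% called, compared with 37.4% of all genes), with a median of -0.29. The difference of these shares from that of the ribosomal proteins was not tested. Among the falls were Mdn1, the giant ATPase that strips assembly factors from the large subunit (log2 fold change -1.78, adjusted p = 0.00015), and Nhp2, a core protein of the snoRNPs that convert uridine to pseudouridine (-1.33, adjusted p = 0.00054). Nop10, which works in the same particles as Nhp2, rose (1.03, adjusted p = 0.00011), as did Tsr2, the chaperone that delivers Rps26 (1.17, adjusted p = 0.00031). Rps26 itself did not pass (-0.22, adjusted p = 0.0634), but passed without both arrays numbered 1 (-0.30, adjusted p = 0.00024). Of 27 subunits and factors of RNA polymerases I and III, which make ribosomal and transfer RNA, 4 rose and 8 fell (44.4% called, near the 37.4% of all genes). Polr3g fell (-1.29) and its paralogue Polr3gl rose (1.35), and Polr1a, the catalytic subunit of polymerase I, fell (-1.08, adjusted p = 0.0024).

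Translation factors moved both ways, where 19.2% of all genes rose and 18.2% fell. Of 32 initiation factors 9 rose and 9 fell (56.2% called), with Eif4e, which binds the mRNA cap, at 0.87 (adjusted p = 0.00134) and Eif1a, which promotes scanning, at -1.06 (adjusted p = 0.00054). Its relative Eif1ax, at a mean level of 9.44 against 8.73 for Eif1a, did not pass (-0.20, adjusted p = 0.187). Of 12 elongation genes 3 rose and 1 fell (33.3% called). Eef2, the translocation factor, read 12.71, 12.74 and 12.69 against 12.92, 12.93 and 12.92. The dishes of a group lay close together, and its log2 fold change of 0.21 passed (adjusted p = 0.0152). Eef2k, the kinase that inhibits Eef2, rose by 1.49 (adjusted p = 0.00138). Of 17 genes of ribosome rescue and quality control 10 rose and 2 fell (70.6% called), with a median of 0.45. Pelo and Hbs1l, which together split stalled ribosomes, rose by 1.24 (adjusted p = 0.00047) and 1.36 (adjusted p = 3.4e-05), and Usp10, a deubiquitinase that rescues small-subunit proteins, fell (-1.44, adjusted p = 0.00034).

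The regulators of the family also included large changes. Myc, a known activator of ribosome production, read 9.79, 9.90 and 9.82 with Ad-GFP and 8.23, 8.01 and 7.83 with Ad-nuclear CREBH, which is a change of -1.81 (SE 0.132, adjusted p = 3.7e-05). Gabpa and Yy1 did not pass (0.22, adjusted p = 0.211, and 0.06, adjusted p = 0.715). Of 11 promoter factors 2 rose and 2 fell (36.4% called, near the 37.4% of all genes). Larp1, which binds TOP mRNAs, fell from 9.91, 10.14 and 10.10 to 9.26, 9.45 and 9.41 (log2 fold change -0.68, adjusted p = 0.00178). Of 29 genes of the mTORC1 pathway and TOP control 5 rose and 4 fell (31% called, compared with 37.4% of all genes). Of the snoRNA host genes with a TOP start, Snhg5 fell (-1.13, adjusted p = 0.00127) and Gas5 did not pass (-0.18, adjusted p = 0.197). Within the checkpoint that free Rpl5 and Rpl11 act on, Mdm2 and Mdm4 fell (-0.81, adjusted p = 0.00368, and -0.88, adjusted p = 0.00172) and Cdkn1a rose (0.47, adjusted p = 0.00591).

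As other large complexes, 74 mitochondrial ribosomal proteins and 35 proteasome subunits were counted in the same fit. Of the former 9 rose and 22 fell (41.9% called, median -0.19), with Mrpl23 at -1.33 and Mrpl47 at 0.99. Of the latter 3 rose and 9 fell (34.3% called, median -0.12), with Psmd5 at -1.82 and Psmd3 at 0.68. The medians of all 3 complexes lay below that of all genes, and with arrays centred on their medians they were -0.04, 0.02 and 0.027 for mitochondrial ribosomal proteins, proteasome subunits and cytosolic ribosomal proteins. The difference in the share called between these complexes was not tested.

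**Figure D5:**
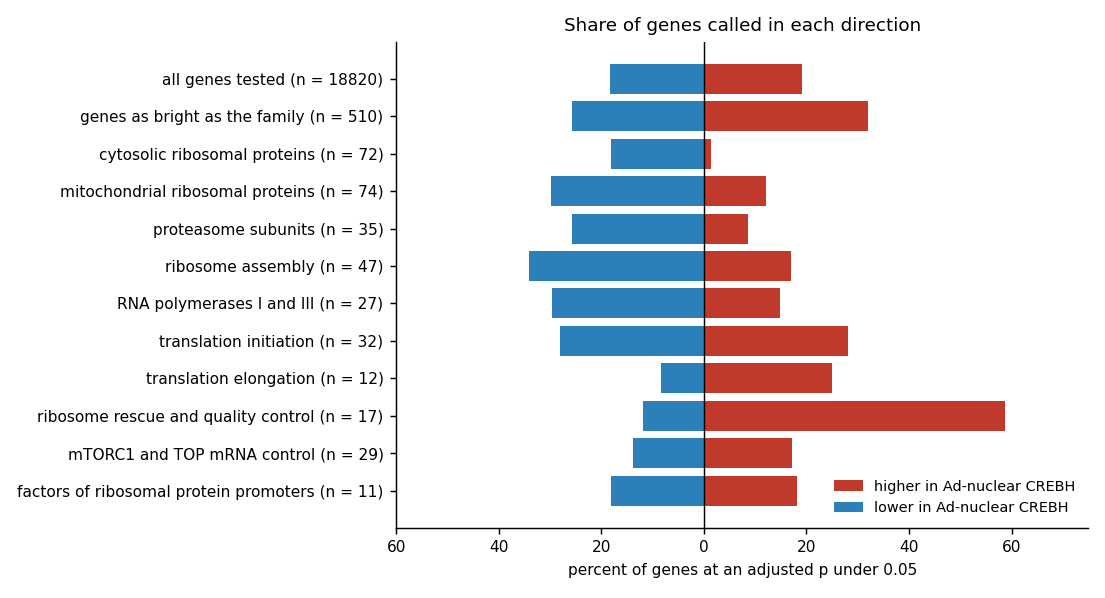
Percent of the measured genes of each group at an adjusted p under 0.05 (horizontal axis), to the right if higher and to the left if lower in Ad-nuclear CREBH, with the number of genes in brackets. The group called as bright as the family holds the 510 genes at or above a level of 10.63. Cytosolic ribosomal proteins have 18.1% to the left and 1.39% to the right, and ribosome rescue and quality control has 10 of 17 to the right.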

How the data were processed

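Per the labels and the methods, RNA of 6 dishes of primary hepatocytes, 3 Ad-GFP and 3 Ad-nuclear CREBH, was labelled (100 ng each) and hybridized to 1 array per dish. The methods and the labels name different RNA kits, and the virus appears as Ad-CREBH3 in the labels. The authors deposited log2 values made with RMA, which corrects background, normalizes between arrays and summarizes probes. The RMA version and array definition are not given in the sources used here. On arrays of this kind, differences of very dim and very bright genes are understated.

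Of 35556 features, 21218 carried exactly 1 gene symbol in the platform annotation, and each of 18820 genes was read from its brightest feature. The members were taken by symbol. Linear models were fitted to the deposited values of all genes in R 4.3.3 with limma 3.58.1 (lmFit, eBayes with an intensity trend, 4 residual and 3.97 prior degrees of freedom, no covariate), two-sided, with Benjamini-Hochberg adjustment over all 18820 genes and a threshold of 0.05. The fit was tested on simulated data. The precision is limited by 3 arrays per group. No pair of arrays shared more than 18 identical values. The study's criteria used 2 to the power of the group mean as the linear value, in at least 1 group. Summed marker levels are sums of the linear values.

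The genes named are Creb3l3, the paralogues and their partners, a set of well-known members, up to 10 largest rises and falls, the 5 members with the highest and lowest levels, up to 5 members that depart most from the family median in each direction, and in other lists up to 4 largest rises and falls and the 3 brightest genes that did not pass. Genes shown only to illustrate features or motifs were picked after their values were seen. The members and lists were chosen with earlier results of these data known. Alternatives were the variance prior, array weights, replicate number as a block, 3 other scalings, the mean of features, an expression filter, the family median as reference, the methods' criteria and leaving out arrays. The fit without both arrays numbered 1, the comparison above the family's median level and the family-centred counts were added after values were seen. Sequences came from RefSeq (GRCm38.p6). Python 3.11.15, pandas 2.3.3 and matplotlib 3.10.9 were used for summaries and figures.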

Additional observations from a re-analysis of the deposited data

How the results depend on the processing

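The 1 rise and 13 falls among the 72 genes, and their median log2 fold change of -0.115, were recomputed under 16 other fits. Falls numbered 7 without the intensity trend, 22 with array weights and 24 after cyclic loess (3490, 4595 and 3299 of all genes). Among genes with expression over 300 they numbered 20 of 62 members tested (1468 of 4741 genes). Falls numbered 3 with arrays centred on their medians, 7 with arrays centred on the family median (2852 and 2239 of all genes) and 0 under the methods' criteria. Rises numbered 4 with array weights and 2 after quantile normalization (4624 and 3522 of all genes). They also numbered 4 with the expression filter (1861 of 4741 genes), with centring on array medians (4814 of all genes) and on the family median (4162 of all genes). With the replicate number as a block 3 rose and 22 fell (3715 and 3705 of all genes). The main fit did not take the numbers as pairs, because deviations of same-numbered arrays correlated weakly over all genes (0.178, 0.073 and 0.139). Over the 72 genes the correlations were higher, at 0.617, 0.281 and 0.632, and 4 of 6 arrays matched their own number best over all genes. For this family the counts thus depend on that choice. Leaving out 1 array gave 1 to 4 rises, 6 to 16 falls and a median of -0.159 to -0.072. Among all genes these fits gave 2877 to 3764 rises and 2637 to 4043 falls. Leaving out both arrays numbered 1, an alternative chosen after seeing the data, gave 5 rises and 32 falls (4377 and 4765 of all genes). The median turned to 0.027 with arrays centred on their medians, which subtracts 1 constant per array from every gene. It was 0.037 when centred on the family median, which sets it near 0 by construction. Bright genes outside the family were called at 49.8% to 84% over these fits, and the members at 9.72% to 51.4%. Of the 14 called members 0 changed sign, and 4 (Rplp2, Rps19, Rps9 and Rps4l) kept the call in every fit that tested them. Of the members not called, 30 changed sign in at least 1 fit. RMA values carry no detection flag, so for Rpl3l, Rpl10l and Rpl39l, with means near 3, an absence of expression cannot be told from a low level.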
